A study of Mus musculus with 12 samples.

Results

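The 32 genes described here belong to the unfolded protein response and the integrated stress response, which cells use when proteins misfold in the endoplasmic reticulum (ER) or when amino acids run short. They were taken by symbol from a named list and comprise 11 ER chaperones and cochaperones, 3 protein disulfide isomerases, 8 genes of ER-associated degradation and protein translocation, 3 stress sensors, 3 transcription factors and 4 target genes of the integrated stress response. They are 32 of the 21851 genes with a usable symbol. RNA was sequenced from cells washed out of the peritoneal cavity of C57BL/6J mice, with 3 libraries in each of 4 groups: lactoferrin knockout mice given LPS (KO LPS), wild-type mice given LPS (WT LPS), lactoferrin knockout mice given PBS (KO PBS) and wild-type mice given PBS (WT PBS). LPS is lipopolysaccharide, the outer membrane lipid of Gram-negative bacteria, and both LPS and the saline buffer PBS were injected into the peritoneum. Lactoferrin binds iron and is stored in the granules of neutrophils and released in secretions. The sources used here do not give the dose of LPS, the time of sampling, the age or sex of the mice or the nature of the knockout allele. The labels do not say that the libraries came from separate mice, so p-values measure the spread between these libraries.

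In the unfolded protein response, the ER membrane proteins IRE1 (encoded by Ern1), PERK (encoded by Eif2ak3) and ATF6 sense misfolded protein. IRE1 splices Xbp1 mRNA, ATF6 is cut to release a transcription factor, and both routes raise transcription of chaperone and degradation genes. PERK phosphorylates the translation factor eIF2, as do the kinases that sense amino acid shortage, haem shortage and double-stranded RNA. This lowers general translation but raises translation of Atf4 mRNA, and the transcription factor ATF4 then acts on genes of amino acid synthesis and uptake, which is the integrated stress response. Macrophages and B cells, which are abundant in the resting peritoneal cavity, express these genes, and plasma cells carry high levels of the folding genes.

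The checks that touch the results were these. Lactoferrin (Ltf) averaged 0.0899 ± 0.0240 FPKM in KO LPS, 0.593 ± 0.639 FPKM in WT LPS, 0.218 ± 0.0376 FPKM in KO PBS and 1.43 ± 0.402 FPKM in WT PBS libraries (SD, n = 3 each). The WT LPS libraries had 0.176, 1.33 and 0.275 FPKM, so their mean rests on the second. They all lay above the KO LPS libraries (0.0699 to 0.117 FPKM), but the first lay below and the third just above the KO PBS libraries (0.183 to 0.258 FPKM). At such levels Ltf separated the genotypes within each treatment and not across treatments. FPKM is a fragment count divided by transcript length and library size, and every level given is on this scale. Summed FPKM of 10 peritoneal macrophage markers, Lyz2 and Adgre1 among them, ran from 8575 to 10847 in KO LPS, 6357 to 9286 in WT LPS, 13227 to 15268 in KO PBS and 9847 to 22103 in WT PBS libraries. Of these markers, 7 of 10 fell in KO LPS against KO PBS and 6 of 10 in WT LPS against WT PBS. For this and the next marker counts, 33.3% of all tested genes fell in the knockout and 37.4% in wild type, and 19.9% and 24.8% rose. Of 7 B cell markers, 6 fell in the knockout and 5 in wild type, with sums of 162 to 281 FPKM in KO LPS, 269 to 388 FPKM in WT LPS, 699 to 963 FPKM in KO PBS and 566 to 1167 FPKM in WT PBS libraries. T cell markers, with sums of 7.21 to 15.5 FPKM in KO LPS, 12.5 to 15.02 FPKM in WT LPS, 16.1 to 22.8 FPKM in KO PBS and 32.9 to 45.3 FPKM in WT PBS libraries, fell with LPS for 3 of 7 in the knockout and 7 of 7 in wild type. Mast cell markers, with sums of 521 to 594 FPKM in KO LPS, 727 to 744 FPKM in WT LPS, 560 to 907 FPKM in KO PBS and 294 to 768 FPKM in WT PBS libraries, gave no call in the knockout and 2 of 7 higher in wild type. The part of these shifts in the values given for single genes was not tested. The third WT PBS library stood apart. Its Spearman correlation with either companion in its group was 0.934 or 0.949, whereas all other pairs within groups reached 0.973 or more. Its macrophage marker sum was 22103 FPKM, against 9847 FPKM in the first and 10455 FPKM in the second WT PBS library. In such bulk samples, fewer cells of a type and less RNA per cell cannot be told apart.

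The promoters show which of these genes carry a perfect copy of a stress element close to their start. RefSeq promoters (GRCm38.p6, 250 bases before to 50 bases after the start site) were listed for 28 of the 32 genes, and both strands were searched. The ER stress response element (ERSE), bound by NF-Y together with ATF6 or XBP1, was searched as CCAAT, a gap of 9 bases and CCACG. Its second form, ERSE-II, was searched as ATTGG, a gap of 1 base and CCACG. The other motifs were the unfolded protein response element TGACGTGG, the cyclic AMP response element TGACGTCA and the C/EBP-ATF element TTGCATCA, to which ATF4 binds with C/EBP proteins. No matches of different motifs overlapped in these 28 genes. The promoter of Hspa5, which encodes the main ER chaperone BiP, holds an ERSE. That of Herpud1, which encodes an ER membrane scaffold of degradation, holds both an ERSE-II and a C/EBP-ATF element, and that of Chac1, which encodes a glutathione-degrading enzyme, holds a C/EBP-ATF element. These 3 are shown because together they hold the ERSE, the ERSE-II and the C/EBP-ATF element, with the elements in capitals and all on the plus strand of the genome at chr2:34771840-34772139, chr8:94386179-94386478 and chr2:119350992-119351291.
Hspa5: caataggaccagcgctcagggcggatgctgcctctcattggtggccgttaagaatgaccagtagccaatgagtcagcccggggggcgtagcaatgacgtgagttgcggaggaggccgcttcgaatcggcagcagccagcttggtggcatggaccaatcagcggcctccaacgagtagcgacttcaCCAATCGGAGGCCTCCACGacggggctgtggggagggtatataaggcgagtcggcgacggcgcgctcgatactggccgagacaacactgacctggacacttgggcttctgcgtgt
Herpud1: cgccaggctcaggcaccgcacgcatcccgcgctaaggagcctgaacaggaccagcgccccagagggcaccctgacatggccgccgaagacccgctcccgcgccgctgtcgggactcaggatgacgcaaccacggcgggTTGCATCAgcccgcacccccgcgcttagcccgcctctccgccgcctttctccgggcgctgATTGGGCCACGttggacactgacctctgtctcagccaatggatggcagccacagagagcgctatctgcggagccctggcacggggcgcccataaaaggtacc
Chac1: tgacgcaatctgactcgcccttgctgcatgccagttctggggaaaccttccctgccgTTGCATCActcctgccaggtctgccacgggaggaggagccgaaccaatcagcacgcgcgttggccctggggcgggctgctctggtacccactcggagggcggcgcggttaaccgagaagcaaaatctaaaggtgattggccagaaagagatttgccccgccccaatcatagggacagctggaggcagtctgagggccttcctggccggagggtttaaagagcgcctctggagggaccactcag

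An ERSE was present in 9 of the 28 genes, against 0.119% of all 32851 promoters of this length (39 promoters). Besides Hspa5, these were the chaperones Hsp90b1, Calr, Canx and Dnajc3, the folding genes Creld2 and Pdia6, the ubiquitin ligase gene Syvn1 and the degradation gene Derl3. Their elements follow, read along the strand of the motif, with the fixed letters in capitals. Hsp90b1 holds a pair of them.
Hsp90b1: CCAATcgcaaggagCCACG
Hsp90b1: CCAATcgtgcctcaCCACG
Calr: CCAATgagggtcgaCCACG
Canx: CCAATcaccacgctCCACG
Dnajc3: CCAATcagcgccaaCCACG
Creld2: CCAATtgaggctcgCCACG
Pdia6: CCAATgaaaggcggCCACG
Syvn1: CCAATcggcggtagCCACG
Derl3: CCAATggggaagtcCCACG
ERSE-II was present in Herpud1 and Dnajb11 (2 of 28, against 0.0365% of all promoters), the C/EBP-ATF element in Herpud1 and Chac1 (2 of 28, against 0.895%), and the cyclic AMP response element in Ppp1r15a (1 of 28, against 1.79%). The exact letters of the unfolded protein response element were in none of the 28 (0.676% of all promoters). A match is a description of the sequence and not a site shown to be bound. The 28 genes had 29 promoters, so shares of genes stand here beside shares of promoters. These genes were listed for their part in the stress responses, so a larger share among them is no test of the motif.

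**Figure D1:**
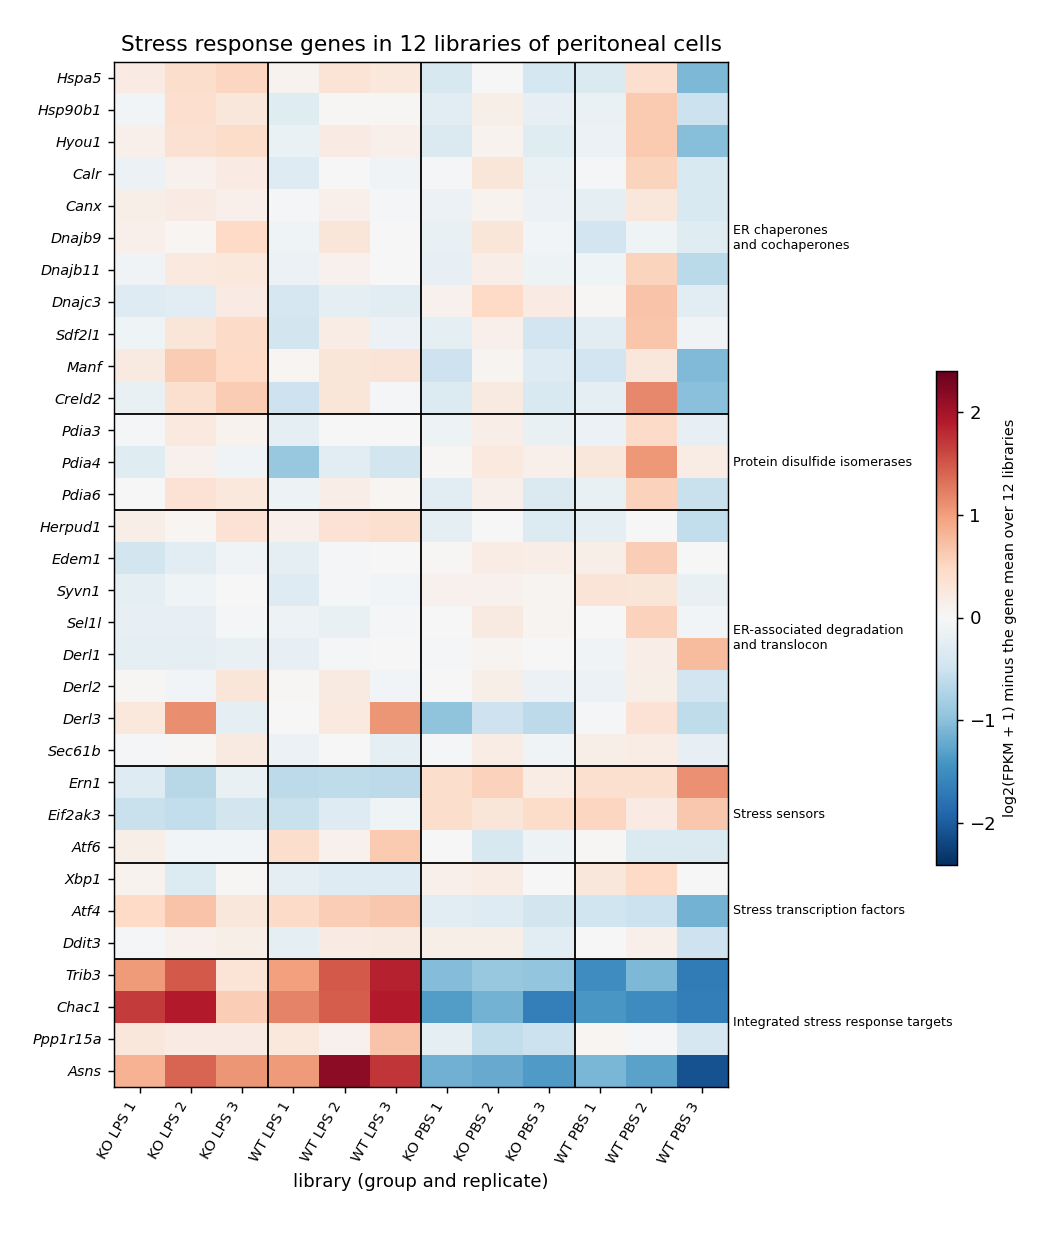
Level of the 32 genes (rows, by role) in the 12 libraries (columns), as log2(FPKM + 1) minus the mean of the gene over the 12 libraries, red above and blue below that mean. Atf4, Trib3, Chac1 and Asns are red in LPS libraries and blue in PBS libraries, Ern1 and Eif2ak3 show the opposite, and the chaperone rows vary most between the second and the third WT PBS library.

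All 32 genes passed the filter on low values, an average level of 1 FPKM or more, and were tested. Mean levels ranged from 607 FPKM for Hspa5 to 4.51 FPKM for Ddit3. Next in order were Calr at 451, Pdia3 at 302, Hsp90b1 at 297 and Atf4 at 221 FPKM, and 5 genes (Chac1, Ern1, Trib3, Derl3 and Ddit3) averaged under 10 FPKM. In the GENCODE annotation, exons of other genes overlap 10 of the 32 genes on the opposite strand and 4 on the same strand, and reads there cannot be assigned further than the authors' values do.

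The first question was how the genes responded to LPS in each genotype. In the knockout, 6 of the 32 genes were higher and 3 lower in KO LPS than in KO PBS libraries (limma on log2(FPKM + 1), adjusted p under 0.05). These 9 genes are 28.1% of the 32, while 53.2% of all 9841 tested genes were called (19.9% higher and 33.3% lower). In wild type, 7 were higher and 4 lower in WT LPS than in WT PBS libraries. These 11 genes are 34.4% of the 32, against 62.2% of all tested genes (24.8% higher and 37.4% lower). The share of stress genes called was thus below the background in both genotypes, mainly through fewer lower calls. In the knockout 18.8% of the 32 were higher and 9.38% lower, and in wild type 21.9% and 12.5%. The higher shares were near the background. Between the genotypes, 7 genes were called in both, all in the same direction, 5 of them higher and 2 lower. The median log2 difference of the 32 was 0.20 in the knockout and 0.07 in wild type, beside medians of -0.12 and -0.11 over all tested genes. The groups did not overlap for 11 genes higher and 6 lower in the knockout (24.6% and 41.3% of all tested genes) and for 7 higher and 4 lower in wild type (27.2% and 38.9%).

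**Figure D2:**
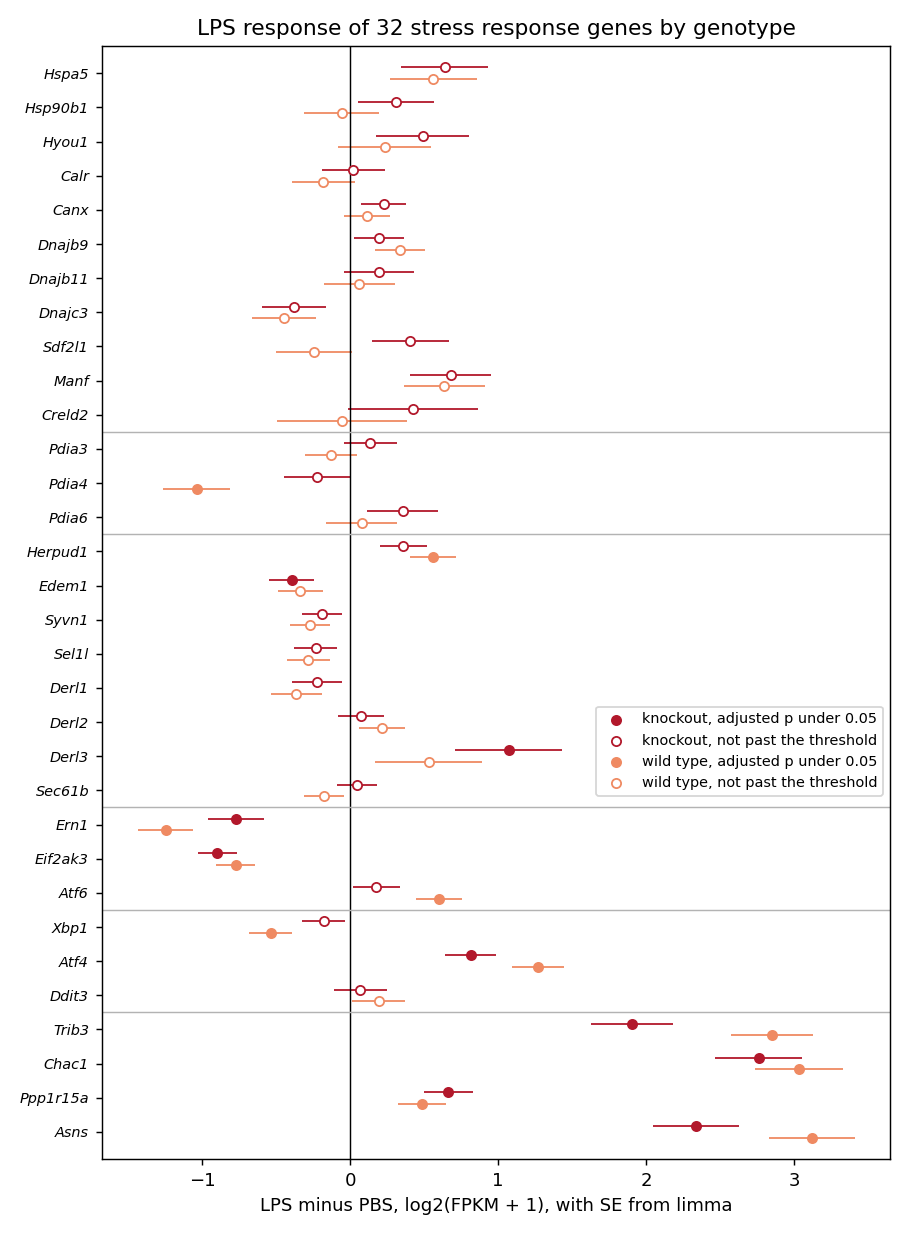
Difference between LPS and PBS libraries in log2(FPKM + 1) for the 32 genes in knockout (dark red, upper point of each pair) and wild type (orange, lower point), with the limma SE as bars and filled points for an adjusted p under 0.05. The largest positive differences belong to Asns, Chac1 and Trib3 and the largest negative ones to Ern1, Pdia4 in wild type and Eif2ak3, while no chaperone point is filled.

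Asns, Chac1 and Trib3, targets of the integrated stress response, had the largest changes of the 32 genes in both genotypes. All 4 targets (Trib3, Chac1, Ppp1r15a and Asns) were higher after LPS in both genotypes, with a median log2 difference of 2.12 in the knockout and 2.94 in wild type. Asns (chr6:7675169-7693254, minus strand, GRCm38) encodes asparagine synthetase. It had 15.9, 23.9 and 18.7 FPKM in KO LPS libraries and 18.4, 41.0 and 30.4 FPKM in WT LPS libraries, against 3.28, 3.10 and 2.71 FPKM in KO PBS libraries and 3.44, 2.91 and 1.24 FPKM in WT PBS libraries. Every LPS library lay above every PBS library. The log2 difference was 2.33 ± 0.29 (SE) in the knockout (limma, adjusted p = 7.37e-05) and 3.12 ± 0.29 in wild type (limma, adjusted p = 8.37e-06). The ratio of mean FPKM was 6.45 in the knockout and 11.8 in wild type.

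Chac1 (chr2:119351229-119354381, plus strand), whose product degrades glutathione, was close to 1 FPKM or below in all PBS libraries. It had 13.0, 15.4 and 5.58 FPKM in KO LPS libraries and 9.06, 10.99 and 15.4 FPKM in WT LPS libraries, against 0.727, 1.001 and 0.410 FPKM in KO PBS libraries and 0.673, 0.554 and 0.384 FPKM in WT PBS libraries. The groups did not overlap, and the third KO LPS library was the lowest of the LPS libraries. The log2 difference was 2.76 ± 0.30 in the knockout (limma, adjusted p = 2.69e-05) and 3.03 ± 0.30 in wild type (limma, adjusted p = 1.12e-05), where the added 1 FPKM shrinks the difference of so low a gene. The ratio of mean FPKM was 15.9 in the knockout and 22.0 in wild type.

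Trib3 (chr2:152337422-152344032, minus strand) encodes a pseudokinase that is induced by ATF4 and CHOP and restrains them. It had 8.33, 11.7 and 4.75 FPKM in KO LPS libraries and 8.12, 11.7 and 15.5 FPKM in WT LPS libraries, against 1.22, 1.45 and 1.37 FPKM in KO PBS libraries and 0.627, 1.18 and 0.436 FPKM in WT PBS libraries. All LPS libraries were above all PBS libraries, and all KO PBS libraries were above all WT PBS libraries. The log2 difference with LPS was 1.90 ± 0.28 in the knockout (limma, adjusted p = 0.000211) and 2.85 ± 0.28 in wild type (limma, adjusted p = 1.08e-05). The difference between these responses was -0.95 ± 0.39, with an adjusted p of 0.485 (limma), so a genotype difference was not shown.

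Ppp1r15a (chr7:45522916-45526268, minus strand) encodes GADD34, the stress-induced subunit that directs dephosphorylation of eIF2. Its levels were 20.4, 19.3 and 19.4 FPKM in KO LPS libraries and 20.3, 18.2 and 27.7 FPKM in WT LPS libraries, against 14.2, 10.8 and 11.5 FPKM in KO PBS libraries and 17.3, 16.4 and 12.5 FPKM in WT PBS libraries. LPS and PBS libraries did not overlap in either genotype, although 18.2 and 17.3 FPKM were close in wild type. The log2 difference was 0.66 ± 0.16 in the knockout (limma, adjusted p = 0.00527) and 0.48 ± 0.16 in wild type (limma, adjusted p = 0.0223). In wild type the call was lost without the third WT LPS library (0.32, adjusted p = 0.104), without the third WT PBS library (0.35, adjusted p = 0.0850) and in a fit of the wild-type libraries alone (0.48, adjusted p = 0.0631). An exon of Tulp2 overlaps this gene on the opposite strand, and the authors' use of strand is not given in the sources used here.

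Atf4 (chr15:80255184-80257541, plus strand) was the only one of the 3 transcription factors that was higher after LPS in either genotype. It had 286, 329 and 249 FPKM in KO LPS libraries and 283, 307 and 323 FPKM in WT LPS libraries, against 171, 166 and 151 FPKM in KO PBS libraries and 147, 143 and 93.4 FPKM in WT PBS libraries. The LPS libraries of the 2 genotypes overlapped with each other and not with any PBS library. The log2 difference was 0.82 ± 0.17 in the knockout (limma, adjusted p = 0.00231) and 1.27 ± 0.17 in wild type (limma, adjusted p = 9.23e-05).

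Ddit3 encodes CHOP, a factor that acts below ATF4 and is tied to cell death in prolonged ER stress. It had 4.32, 4.88 and 5.00 FPKM in KO LPS libraries and 3.64, 5.26 and 5.33 FPKM in WT LPS libraries, against 5.00, 5.02 and 3.50 FPKM in KO PBS libraries and 4.38, 4.94 and 2.86 FPKM in WT PBS libraries. The groups overlapped throughout. For Ddit3 the log2 difference was 0.07 ± 0.18 in the knockout (limma, adjusted p = 0.765) and 0.19 ± 0.18 in wild type (limma, adjusted p = 0.376). A second annotated gene of the same name, and Mars on the opposite strand, overlap Ddit3, which limits what its value stands for.

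**Figure D3:**
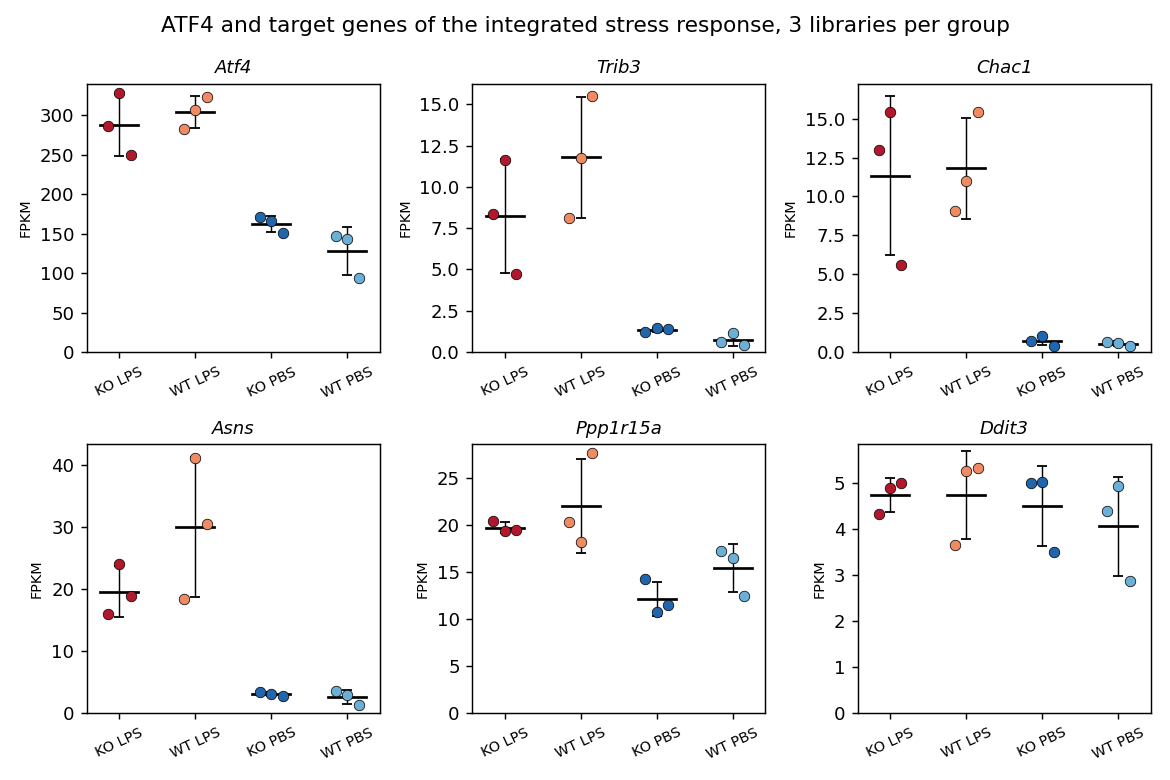
FPKM of Atf4, Trib3, Chac1, Asns, Ppp1r15a and Ddit3 in the 3 libraries of each group (points), with the group mean (bar) and SD (whiskers) on linear axes from 0. LPS groups lie above PBS groups for the first 5 genes, and the 4 groups overlap for Ddit3.

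Of 23 further ATF4-linked targets listed, 19 were tested. In the knockout 9 were higher, 1 lower and 9 not called after LPS, where 19.9% of all tested genes were higher. In wild type 11 were higher, 2 lower and 6 not called, where 24.8% of all tested genes were higher. The median log2 difference was 0.60 in the knockout and 0.87 in wild type. The genes with the largest rises were Shmt2 and Mthfd2, enzymes of mitochondrial one-carbon metabolism, and Slc7a5, a transporter of large neutral amino acids. Shmt2 averaged 111 FPKM in KO LPS and 142 FPKM in WT LPS, against 24.3 FPKM in KO PBS and 24.4 FPKM in WT PBS libraries. Its log2 difference was 2.13 ± 0.22 in the knockout (limma, adjusted p = 2.29e-05) and 2.52 ± 0.22 in wild type (limma, adjusted p = 6.24e-06). Slc7a5 averaged 93.9 FPKM in KO LPS and 123 FPKM in WT LPS, against 24.2 FPKM in KO PBS and 20.5 FPKM in WT PBS libraries. Mthfd2 averaged 54.3 FPKM in KO LPS and 67.0 FPKM in WT LPS, against 14.6 FPKM in KO PBS and 10.4 FPKM in WT PBS libraries. The serine synthesis genes Psat1, Phgdh and Psph, the transporter genes Slc3a2 and Slc7a1, and Gpt2 were the others called higher in both genotypes. These genes were chosen after their values were seen. Of the genes that fell, Nupr1 did so in the knockout, and Cebpg and the cystine transporter gene Slc7a11 in wild type (also named after their values were seen).

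Of 14 genes for eIF2 kinases, eIF2 and eIF2B subunits and their partners, on which the response acts, 11 rose in the knockout and 10 in wild type, and none fell. Among all tested genes 19.9% rose in the knockout and 24.8% in wild type. The median log2 difference of the 14 was 0.34 in the knockout and 0.53 in wild type. Eif2s2, which encodes the beta subunit of eIF2, averaged 81.7 FPKM in KO LPS and 92.5 FPKM in WT LPS, against 41.1 FPKM in KO PBS and 33.2 FPKM in WT PBS libraries. Eif2ak2 encodes PKR, the eIF2 kinase that senses double-stranded RNA and is induced by interferon. It averaged 32.9 FPKM in KO LPS and 31.7 FPKM in WT LPS, against 18.0 FPKM in KO PBS and 12.7 FPKM in WT PBS libraries. Eif2b3, for a subunit of the eIF2 exchange factor, rose by 0.61 ± 0.13 on the log2 scale in the knockout and by 1.08 ± 0.13 in wild type (limma, adjusted p = 0.00236 and 3.90e-05).

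Of the 3 sensors, the genes of IRE1 and PERK were lower after LPS in both genotypes. Ern1 (chr11:106394650-106487852, minus strand) had 4.26, 3.13 and 4.74 FPKM in KO LPS libraries and 3.22, 3.31 and 3.21 FPKM in WT LPS libraries, against 7.77, 8.53 and 6.38 FPKM in KO PBS libraries and 7.54, 7.55 and 13.0 FPKM in WT PBS libraries. No LPS library reached the lowest PBS library. Ern1 fell by 0.77 ± 0.19 in the knockout (limma, adjusted p = 0.00527) and by 1.25 ± 0.19 in wild type (limma, adjusted p = 0.000185) on the log2 scale.

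Eif2ak3 (chr6:70844515-70905245, plus strand) had 6.28, 6.01 and 6.76 FPKM in KO LPS libraries and 6.22, 7.53 and 8.77 FPKM in WT LPS libraries, against 13.0, 11.8 and 13.3 FPKM in KO PBS libraries and 14.1, 11.1 and 15.6 FPKM in WT PBS libraries. All 6 LPS libraries were below all 6 PBS libraries. It fell by 0.90 ± 0.13 in the knockout (limma, adjusted p = 0.000249) and by 0.77 ± 0.13 in wild type (limma, adjusted p = 0.000452) on the log2 scale. An exon of the predicted gene Gm43292 overlaps it on the opposite strand.

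Atf6 (chr1:170704674-170867771, minus strand) moved the other way. Its levels were 29.2, 25.2 and 25.2 FPKM in KO LPS libraries and 35.6, 28.3 and 41.1 FPKM in WT LPS libraries, against 26.3, 19.98 and 24.1 FPKM in KO PBS libraries and 26.9, 20.6 and 20.5 FPKM in WT PBS libraries. The LPS libraries lay above the PBS libraries in wild type and overlapped with them in the knockout. Atf6 rose by 0.60 ± 0.16 in wild type (limma, adjusted p = 0.00616), and the difference in the knockout was 0.18 ± 0.16 (limma, adjusted p = 0.362). The difference between the responses was -0.42 ± 0.22 with an adjusted p of 0.563 (limma), so it was not shown to depend on genotype.

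Xbp1 (chr11:5520659-5525893, plus strand) encodes the factor whose mRNA IRE1 splices, and these gene values do not separate its spliced and unspliced forms. It had 133, 100 and 129 FPKM in KO LPS libraries and 107, 101 and 101 FPKM in WT LPS libraries, against 138, 143 and 127 FPKM in KO PBS libraries and 153, 175 and 125 FPKM in WT PBS libraries. WT LPS libraries were all below WT PBS libraries, whereas KO LPS and KO PBS libraries overlapped. Xbp1 fell by 0.54 ± 0.14 in wild type (limma, adjusted p = 0.00733), and the difference in the knockout was -0.18 ± 0.14 (limma, adjusted p = 0.323). The difference between the responses was 0.36 ± 0.21, with an adjusted p of 0.591 (limma).

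Among 6 proteases and membrane factors related to ATF6, none rose and 2 fell in the knockout, while 1 rose and 2 fell in wild type. The falls were no more frequent than among all tested genes, of which 33.3% fell in the knockout and 37.4% in wild type (19.9% and 24.8% rose). Creb3 and Creb3l2, which encode membrane-bound factors cut in the same way as ATF6, fell in both genotypes. Creb3 averaged 11.8 FPKM in KO LPS and 10.6 FPKM in WT LPS, against 23.7 FPKM in KO PBS and 21.1 FPKM in WT PBS libraries. Creb3l1, from the same family, averaged 5.24 FPKM in KO LPS and 5.16 FPKM in WT LPS, against 4.15 FPKM in KO PBS and 2.21 FPKM in WT PBS libraries, and rose in wild type by 0.98 ± 0.25 on the log2 scale (limma, adjusted p = 0.00475).

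**Figure D4:**
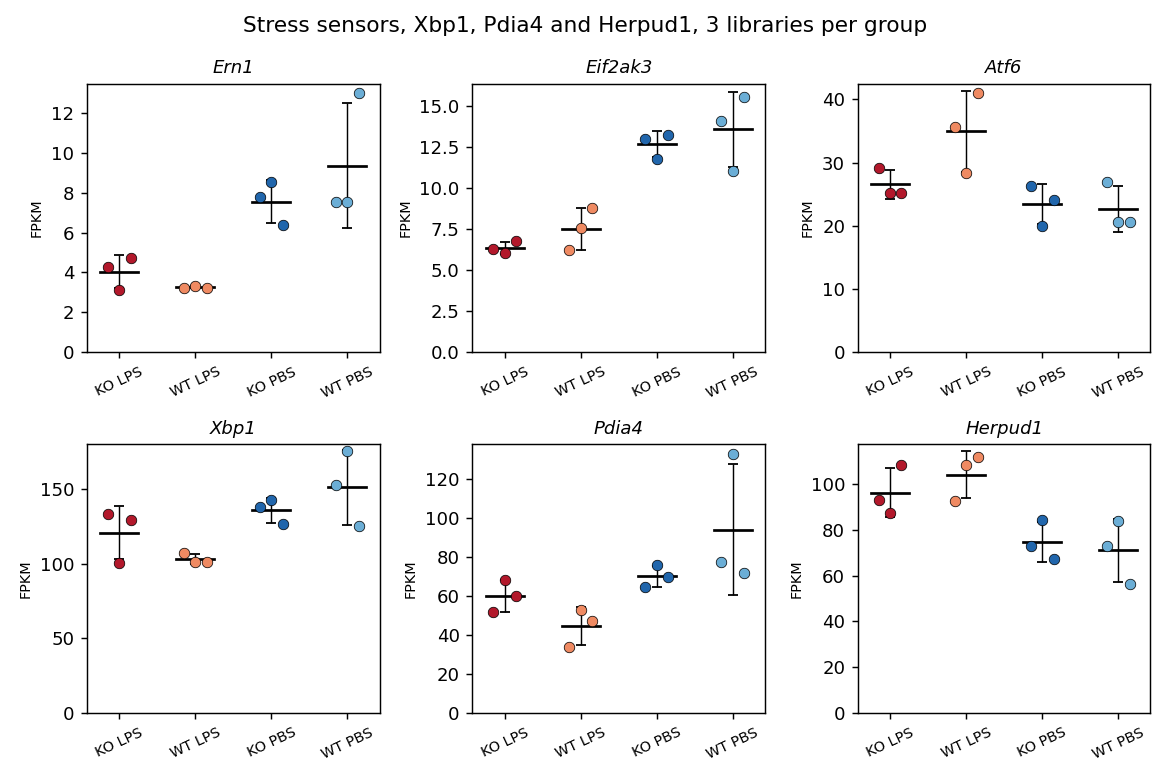
FPKM of Ern1, Eif2ak3, Atf6, Xbp1, Pdia4 and Herpud1 in the 3 libraries of each group (points), with the group mean (bar) and SD (whiskers) on linear axes from 0. Ern1 and Eif2ak3 are lower in LPS than in PBS groups of both genotypes, while the LPS groups of Atf6, Xbp1 and Pdia4 separate from PBS in wild type and overlap with it in the knockout.

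None of the 11 ER chaperones and cochaperones passed the threshold in either genotype. Their median log2 difference was 0.31 in the knockout and 0.06 in wild type. Hspa5 (chr2:34771970-34777547, plus strand), the BiP gene with the ERSE shown above, had 668, 775 and 828 FPKM in KO LPS libraries and 616, 731 and 696 FPKM in WT LPS libraries, against 444, 588 and 435 FPKM in KO PBS libraries and 457, 774 and 274 FPKM in WT PBS libraries. KO LPS libraries were above KO PBS libraries, and in wild type the second WT PBS library lay above all WT LPS libraries. Its log2 difference was 0.64 ± 0.29 in the knockout (limma, adjusted p = 0.0862) and 0.56 ± 0.29 in wild type (limma, adjusted p = 0.113).

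Manf encodes a small secreted ER stress protein, and exons of Rbm15b (same strand) and Dcaf1 (opposite strand) overlap it. It had 115, 150 and 137 FPKM in KO LPS libraries and 102, 121 and 122 FPKM in WT LPS libraries, against 69.7, 103 and 78.9 FPKM in KO PBS libraries and 71.1, 118 and 46.7 FPKM in WT PBS libraries. The groups did not overlap in the knockout and overlapped in wild type through the second WT PBS library. For Manf the log2 difference was 0.68 ± 0.27 in the knockout (limma, adjusted p = 0.0541) and 0.64 ± 0.27 in wild type (limma, adjusted p = 0.0601). Hspa5 and Manf were chosen for these values after they were seen.

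The outcome for both genes changed with the setting. In a fit of the KO libraries alone, the same log2 differences passed the threshold for Hspa5 (adjusted p = 0.00973) and Manf (adjusted p = 0.0108), and so did 0.49 for Hyou1 (adjusted p = 0.0223), another ER chaperone. Without the second WT PBS library, Hspa5 was higher in WT LPS by 0.94 (adjusted p = 0.00362) and Manf by 0.98 (adjusted p = 0.00251), and Hyou1 and the lectin chaperone gene Canx passed too, by 0.63 and 0.30. When the third WT PBS library was left out instead, no chaperone passed as higher in wild type. Dnajc3 then passed as lower there (limma, -0.65, adjusted p = 0.0186). With every library kept, Hspa5 passed in the knockout under median-of-ratios and upper-quartile scaling (adjusted p = 0.0460 and 0.0469). Manf passed under both scalings in the knockout (adjusted p = 0.0284 and 0.0289) and in wild type (adjusted p = 0.0341 and 0.0310). The other chaperones were Hsp90b1, Calr, Dnajb9, Dnajb11, Dnajc3, Sdf2l1 and Creld2. Among these 7, only Dnajc3, which encodes the PERK inhibitor p58IPK, had a negative difference in both genotypes (-0.38 ± 0.22 in the knockout and -0.45 ± 0.22 in wild type; limma, adjusted p = 0.158 and 0.0914).

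The 3 protein disulfide isomerases, which form and rearrange disulfide bonds, did not move alike. Pdia4 (chr6:47796141-47813430, minus strand) had 51.7, 68.3 and 60.1 FPKM in KO LPS libraries and 33.6, 52.6 and 46.8 FPKM in WT LPS libraries, against 64.7, 75.6 and 69.4 FPKM in KO PBS libraries and 77.5, 133 and 71.7 FPKM in WT PBS libraries. WT LPS libraries were all below WT PBS libraries, and KO LPS and KO PBS libraries overlapped. Pdia4 fell by 1.04 ± 0.23 on the log2 scale in wild type (limma, adjusted p = 0.00211), and the difference in the knockout was -0.22 ± 0.23 (limma, adjusted p = 0.427). The difference between the responses was 0.81 ± 0.32, the largest positive one of the 32 genes, with an adjusted p of 0.472 (limma). Pdia3 and Pdia6 had log2 differences of 0.14 and 0.35 in the knockout and -0.13 and 0.08 in wild type, with no call.

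The folding genes moved together between libraries of a group. All 14 chaperones and isomerases were highest in the second library in KO PBS and in WT PBS, where 30.3% and 27.3% of all tested genes were highest. In WT LPS, 14 of 14 were lowest in the first library (48.1% of all tested genes), and in KO LPS 12 of 14 (18.6%). Summed over the 14 genes, the level was 2463, 2984 and 3022 FPKM in KO LPS, 2178, 2670 and 2522 FPKM in WT LPS, 2094, 2694 and 2054 FPKM in KO PBS, and 2139, 3489 and 1666 FPKM in WT PBS libraries. The second WT PBS library was 2.09 times the third. Because these genes vary together, their counts are not independent observations.

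**Figure D5:**
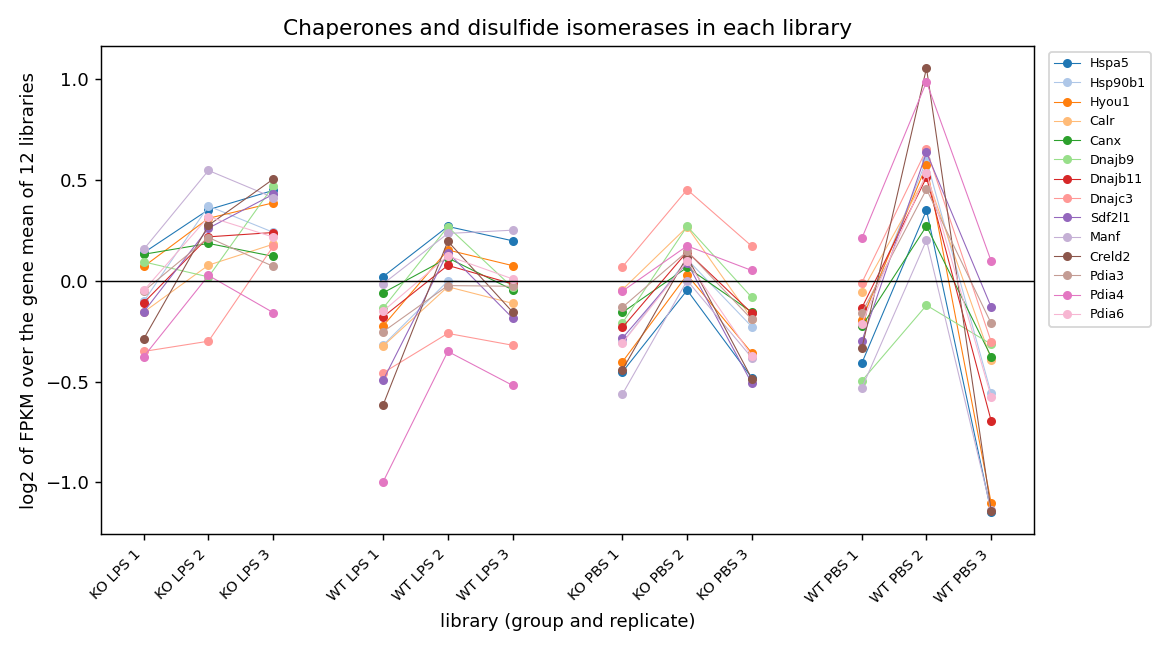
Level of the 14 folding genes in each library as log2 of FPKM over the mean of the gene in the 12 libraries, with thin lines that only join the points of a gene within a group. The genes rise and dip together, most widely in WT PBS, where the summed level was 3489 FPKM in the second library and 1666 FPKM in the third.

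Of 15 further genes of folding, oxidation and retrieval, 1 rose and 5 fell in the knockout, and 1 rose and 4 fell in wild type. The falls were no more frequent than among all tested genes, of which 33.3% fell in the knockout and 37.4% in wild type. Ero1lb and Ero1l encode the oxidases that recharge protein disulfide isomerases, and they moved in opposite directions. Ero1lb averaged 7.59 FPKM in KO LPS and 9.33 FPKM in WT LPS, against 25.4 FPKM in KO PBS and 26.1 FPKM in WT PBS libraries (limma, log2 differences of -1.62 ± 0.18 and -1.41 ± 0.18, adjusted p = 3.13e-05 and 5.54e-05). Ero1l averaged 27.2 FPKM in KO LPS and 23.2 FPKM in WT LPS, against 17.1 FPKM in KO PBS and 14.9 FPKM in WT PBS libraries (limma, 0.64 ± 0.18 and 0.65 ± 0.18, adjusted p = 0.0120 and 0.00947). The reductase gene Dnajc10 fell by 0.80 ± 0.14 in the knockout (limma, adjusted p = 0.000858). In wild type, Kdelr1, for a receptor that returns chaperones to the ER, fell by 0.70 ± 0.13 and Cnpy2 by 0.73 ± 0.16 (limma, adjusted p = 0.000774 and 0.00230).

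The 8 genes of ER-associated degradation and translocation gave 1 higher and 1 lower call in the knockout and 1 higher call in wild type. Over all tested genes, 19.9% were higher and 33.3% lower in the knockout, and 24.8% and 37.4% in wild type. Herpud1 (chr8:94386438-94395377, plus strand), with an ERSE-II and a C/EBP-ATF element in the promoter shown above, had 93.2, 87.2 and 108 FPKM in KO LPS libraries and 92.5, 108 and 112 FPKM in WT LPS libraries, against 73.0, 84.3 and 67.0 FPKM in KO PBS libraries and 72.8, 83.9 and 56.4 FPKM in WT PBS libraries. All LPS libraries were above all PBS libraries. It rose by 0.56 ± 0.16 on the log2 scale in wild type (limma, adjusted p = 0.00896), and the difference in the knockout was 0.36 ± 0.16 (limma, adjusted p = 0.0733). The knockout difference passed in a fit of the KO libraries alone (adjusted p = 0.0454).

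Derl3 (chr10:75893413-75895941, plus strand) encodes a derlin, a membrane protein of the degradation channel. It had 5.64, 11.03 and 3.71 FPKM in KO LPS libraries and 4.53, 5.53 and 10.6 FPKM in WT LPS libraries, against 1.87, 2.96 and 2.58 FPKM in KO PBS libraries and 4.38, 6.10 and 2.63 FPKM in WT PBS libraries. The knockout groups did not overlap, the wild-type groups did, and in each LPS group 1 library stood above the others. Derl3 rose by 1.07 ± 0.36 in the knockout (limma, adjusted p = 0.0266), and the difference in wild type was 0.53 ± 0.36 (limma, adjusted p = 0.221). The call was lost under 5 of the 19 alternative settings. Without the second KO LPS library the knockout difference was 0.70 and no longer passed (limma, adjusted p = 0.115). Nor did it pass without the first KO PBS library (0.94, adjusted p = 0.0879) or the third (1.10, adjusted p = 0.0548). The others were no filter on low values (limma, 1.07, adjusted p = 0.0526) and leaving out the 2 libraries highest in erythroid markers (limma, 1.13, adjusted p = 0.0652).

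Summed FPKM of 8 plasma cell markers ran from 123 to 256 in KO LPS, 151 to 239 in WT LPS, 55.3 to 69.8 in KO PBS and 62.8 to 117 in WT PBS libraries. It was highest in the second KO LPS and the third WT LPS library, which were also the highest for Derl3. The PBS groups showed the reverse. In both, Derl3 was highest in the second library, where the marker sum was the lowest of the group (55.3 FPKM in KO PBS and 62.8 FPKM in WT PBS). Of the 7 markers tested, 3 rose in both genotypes (Irf4, Prdm1 and Tnfrsf13b), where 19.9% of all tested genes rose in the knockout and 24.8% in wild type. Mzb1 fell in wild type, Sdc1, Jchain and Fkbp11 did not pass in either genotype, and Tnfrsf17 was at 0 in 10 of 12 libraries. Their part in the Derl3 values was not tested.

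Edem1 encodes a lectin that hands misfolded glycoproteins to degradation. It averaged 30.4 ± 3.82 FPKM in KO LPS and 34.3 ± 3.01 FPKM in WT LPS, against 40.1 ± 2.33 FPKM in KO PBS and 44.2 ± 10.2 FPKM in WT PBS libraries (SD, n = 3 each). It fell by 0.39 ± 0.15 in the knockout (limma, adjusted p = 0.0471). This call was lost under both other scalings of the libraries (-0.25 and -0.26, adjusted p = 0.203 and 0.183), without the first KO LPS library (-0.31, adjusted p = 0.160) and under 10 more of the 19 alternative settings. The difference in wild type was -0.34 ± 0.15 (limma, adjusted p = 0.0740). Syvn1, Sel1l, Derl1, Derl2 and Sec61b had differences between -0.36 and 0.21 with no call. Without the third WT PBS library, Edem1, Syvn1 and Sel1l passed as lower in wild type (limma, -0.46, -0.43 and -0.40, adjusted p = 0.0205, 0.00638 and 0.0355). Derl1 did so without the first WT PBS library (limma, -0.54, adjusted p = 0.0116). Of 22 further genes of degradation, translocation and signal peptide removal, 1 rose and 3 fell in the knockout and 4 rose and 4 fell in wild type. Calls were less frequent than among all tested genes (19.9% rose and 33.3% fell in the knockout, 24.8% and 37.4% in wild type). Sec61g, for a translocon subunit, was higher in both genotypes (0.54 ± 0.12 in the knockout and 0.63 ± 0.12 in wild type; limma, adjusted p = 0.00281 and 0.000874).

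Set beside the promoters, 1 of the 9 genes with an ERSE was called higher in the knockout and none in wild type. That gene was Derl3, whose call did not hold under every setting. The median log2 differences of the 9 were 0.31 and -0.05, beside -0.12 and -0.11 over all tested genes. Of the 19 other genes with a listed promoter, 5 were higher and 3 lower in the knockout, and 6 higher and 4 lower in wild type. Their medians were 0.14 and 0.06. Over all tested genes, 19.9% were higher and 33.3% lower in the knockout, and 24.8% and 37.4% in wild type. A link between an element and the response to LPS was not tested. Both genes with the exact letters of the C/EBP-ATF element, Herpud1 and Chac1, were higher in wild type, and Chac1 was higher in the knockout. Asns and Trib3, which were higher in both genotypes, held no copy of these exact letters, and variants of the element were not searched.

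The second question was whether lactoferrin loss altered the genes. Under PBS, none of the 32 genes differed between KO PBS and WT PBS libraries (limma; 0.112% of all tested genes, or 11, were called, 0.0203% higher and 0.0915% lower), none had an unadjusted p under 0.05, and the lowest adjusted p was 0.550. Atf4 and Trib3 were the 2 genes whose KO PBS libraries all lay above the WT PBS libraries, and no gene lay wholly below (6.04% and 7.34% of all tested genes). Their log2 differences were 0.37 ± 0.17 for Atf4 (limma, adjusted p = 0.550) and 0.45 ± 0.28 for Trib3 (limma, adjusted p = 0.622). Both values rest in part on the third WT PBS library, in which Atf4 and Trib3 were the lowest of all 12 libraries. Of the 7 T cell markers, all lay without overlap lower in KO PBS than in WT PBS libraries, with an unadjusted p under 0.05 and a lowest adjusted p of 0.0813 (limma). Their part in the stress gene values was not tested.

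Under LPS, none of the 32 genes differed between KO LPS and WT LPS libraries (limma; 0% of all tested genes, with 744 at an unadjusted p under 0.05), 1 had an unadjusted p under 0.05, and the lowest adjusted p was 0.655. That gene was Atf6, with a log2 difference of -0.37 ± 0.16. The KO LPS libraries of Canx, at 149, 155 and 148 FPKM, all lay above the WT LPS libraries, at 131, 147 and 132 FPKM, and it was the only one of the 32 in which the groups did not overlap (5.03% of all tested genes were higher and 10.4% lower without overlap). All 14 folding genes had a positive difference, with a median of 0.18 against -0.04 over all tested genes. None of the 14 had an unadjusted p under 0.05 (limma), and since they vary together they are not 14 independent observations. Differences ranged up to 0.44 ± 0.23 for Pdia4 (limma, adjusted p = 0.690).

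The genotype difference in the LPS response passed for none of the 32 genes (limma; 0.0406% of all tested genes, or 4, were called). At an unadjusted p under 0.05 there were 2, Pdia4 and Trib3, with the values given above, and the lowest adjusted p was 0.472. The SE of these differences ranged up to 0.62, for Creld2, so a threshold missed here does not show that the responses were alike. Summed FPKM of 7 neutrophil markers was 710 to 2660 in KO LPS, 153 to 278 in WT LPS, 1199 to 3035 in KO PBS and 1954 to 3260 in WT PBS libraries. Of these, 2 of 7 fell with LPS in the knockout and 6 of 7 in wild type, where 33.3% and 37.4% of all tested genes fell. Ly6g was at 0 in 2 WT LPS libraries. Their part in the stress gene differences was not tested. Summed FPKM of 6 erythroid markers was 1886 in the first KO LPS and 2225 in the second WT LPS library and at most 330 in the other 10, and without both libraries 7 of the 32 genes were called in the knockout and 11 in wild type.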

How the data were processed

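Each library has a table of gene symbols with values whose unit the authors left unstated. The deposited values were taken as FPKM: they are fractional, total 343874 to 388129 per library, and Cufflinks is named in the submitters' processing notes with TopHat, HTSeq, DESeq and build GRCm38, without versions or roles. FPKM carries no read depth, so no counting intervals are given. The titles of the knockout libraries say wild type, and their descriptions, which say knockout, were used. Of 21878 rows, 27 with date-like symbols were left out. The 9841 genes (45.0%) that averaged 1 FPKM or more were tested with limma 3.58.1 in R 4.3.3 on log2(FPKM + 1), with 4 group means, trended and robust variances, 8 residual degrees of freedom and two-sided p-values adjusted by Benjamini-Hochberg within each of 5 contrasts (threshold 0.05). The procedure was tested on simulated data. Alternatives were a pseudocount of 0.1, no filter, 2 scalings, a replicate block, separate fits and left-out libraries. Library values are given for genes called with a log2 difference of at least 0.5 in size. They are also given for the uncalled Ddit3, Hspa5 and Manf and, under LPS, for Canx. At most 3 called genes were picked per further list and contrast, and more are named from the list of further ATF4-linked targets. Gene positions are from GENCODE (GRCm38). The genes and lists were chosen with earlier results of these data known.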

Additional observations from a re-analysis of the deposited data

How the results depend on the processing

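The number of the 32 genes called stayed within 1.5 times its value under all 19 alternatives, from 7 to 13 in the knockout (9 as reported) and from 10 to 15 in wild type (11 as reported). Among the 12 fits that left out a library the range was 7 to 13 and 10 to 15. In wild type, 11 were higher and 4 lower without the second WT PBS library, against 7 and 4 as reported. Without the third WT PBS library, 6 were higher and 8 lower. No gene was called between the genotypes under PBS or LPS in any of the 19, or in the difference of the LPS responses in any of 18. A fit of only the libraries of the contrast is not defined for that difference. Of the called genes, 7 of 9 in the knockout and 10 of 11 in wild type passed under every alternative, and the exceptions were Derl3 and Edem1 in the knockout and Ppp1r15a in wild type. Of 3007 recomputed gene values, 21 lost and 32 gained a call and none with a call in either fit changed sign. These values include the comparisons between genotypes, where no gene was called. Changes of sign without a call were not counted. With a library left out, the uncalled wild-type differences ranged from -0.54 to 0.53 for Creld2, -0.22 to 0.37 for Dnajb11 and -0.39 to 0.07 for Calr. Median-of-ratios scaling moved the median of all tested genes to -0.0013 in the knockout and -0.0040 in wild type. With it 2659 genes were higher and 2585 lower in the knockout, against 1958 and 3277 as reported, and 3054 higher and 3109 lower in wild type, against 2443 and 3680. It called 11 of the 32 genes in the knockout (9 higher) and 13 in wild type (9 higher), as did upper-quartile scaling. The uncalled wild-type differences of Hsp90b1 and Creld2 changed sign under both scalings, and that of Pdia3 under upper-quartile scaling. With the replicate number as a block, 10 genes were called in the knockout and 12 in wild type, Manf being the added gene in each, and 0 in each other comparison. Deviations of same-numbered libraries had correlations from -0.25 to 0.19 (above 0.1 in 5 of 18 pairs), and those of differently numbered libraries from -0.29 to 0.38 (9 of 36 pairs). Such correlations over all tested genes cannot show whether the numbers pair the libraries. The second library was the highest for 14 of the 14 folding genes in KO PBS and in WT PBS, 13 in WT LPS and 6 in KO LPS. It was the highest for 30.3%, 27.3%, 46.9% and 38.4% of all tested genes. Leaving a library out leaves 2 in its group, which are assumed to vary like the rest.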

Other observations

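Of 5 genes listed as receptors for selective autophagy of the ER, which deliver pieces of ER to the lysosome, 3 fell after LPS in both genotypes (Fam134b, Ccpg1 and Rtn3) and none rose, where 33.3% of all tested genes fell in the knockout and 37.4% in wild type. The 5 had a median log2 difference of -0.73 in the knockout and -0.87 in wild type. Fam134b, which encodes a receptor of ER sheets, averaged 3.44 FPKM in KO LPS and 2.52 FPKM in WT LPS, against 11.2 FPKM in KO PBS and 14.1 FPKM in WT PBS libraries (limma, log2 differences of -1.44 ± 0.19 and -2.09 ± 0.19, adjusted p = 0.000101 and 6.52e-06). Ccpg1, described in other work as a receptor induced by ER stress, averaged 3.81 FPKM in KO LPS and 3.76 FPKM in WT LPS, against 11.4 FPKM in KO PBS and 16.8 FPKM in WT PBS libraries (limma, -1.38 ± 0.22 and -1.84 ± 0.22, adjusted p = 0.000335 and 3.53e-05). Rtn3, for a receptor of ER tubules, averaged 18.0 FPKM in KO LPS and 17.9 FPKM in WT LPS, against 30.4 FPKM in KO PBS and 33.7 FPKM in WT PBS libraries. Tex264 and Atl3 did not pass the threshold. Macrophage markers fell in the same libraries, as given above, and their part in these values was not tested.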
